A study of Mus musculus with 23 samples.

Results

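The subunits of the SET1 and MLL complexes, which methylate lysine 4 of histone H3 (H3K4), were followed here through 8 genes: Setd1a, Setd1b, Men1, Ash2l, Wdr5, Rbbp5, Dpy30 and Hcfc1. Rows bearing these gene names were taken from the deposited RNA-seq tables, and all 8 were found among the 23363 gene names used, each as a single row with an accepted quantification. The cells were mouse embryonic stem cells (ESCs) of the line MS12 KDM2Bfl/fl, passages p10-p20, in which both Kdm2b alleles carry loxP sites around the exon for most of the ZF-CxxC domain. A tamoxifen-inducible Cre, expressed from the Rosa26 locus on 1 allele, is shared by both groups. The line was grown on inactivated mouse embryonic fibroblasts and kept off the feeders overnight before use. Of the RNA-seq samples, 3 were labelled untreated and 3 tamoxifen treated (4-hydroxytamoxifen, 72 hr), and the methods call them biological triplicates. The labels give the dose as 800 nM and the series text as 800 µM. Samples were grouped by label. The file names point the other way for all 6 samples, and if they were right each difference given here would have the reverse sign at equal size and p. ChIP-seq values were not analysed here.

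H3K4 methylation is laid down by a family of multi-subunit complexes, each built on a SET-domain enzyme. SETD1A and SETD1B are paralogous enzymes of the SET1 complexes, which account for most of the trimethylation at active promoters, and the MLL enzymes (KMT2A to KMT2D) act at developmental promoters and at enhancers. All of these enzymes are activated by a common core of WDR5, RBBP5, ASH2L and DPY30, to which menin (the product of Men1) and HCF-1 (Hcfc1) are added in particular complexes. H3K4 methylation marks the same CpG islands that KDM2B reads through its ZF-CxxC domain, and it is generally regarded as the counterpart of polycomb methylation in ESCs.

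The values are FPKM, fragments per kilobase of transcript scaled to the mapped fragments of the sample. Levels of different genes are set side by side on this scale, with a limit. In treated replicate 1 the median log2 deviation from the gene mean was 0.572 under 1000 nt of transcript and −0.619 from 8000 nt. Ratios between genes of unlike length are not free of this trend. The ESC identity of the samples was checked first. All 8 ESC markers were detected in every sample, with Pou5f1 between 369 and 832 FPKM. Their fitted log2 fold changes between the groups ran from −0.07 (Tdgf1) to 0.48 (Nanog). Nanog had 104 to 188 FPKM untreated and 194 to 205 FPKM treated (log2 fold change 0.48). Its groups did not overlap, as was so for 8.49% of all genes. Of the 8 markers, 4 were higher and 0 lower in all 3 replicate numbers, against 24.8% and 28.2% of all genes. Limma called 0 of them without the replicate number as a block and 0 with it, against 0.0308% and 10.4% of all genes. At an unadjusted p under 0.05 there were 0 without the block and 3 with it (Nanog, Sox2 and Dppa5a), against 4.79% and 29.8% of all genes. The part of these marker differences in the values of the subunit genes was not tested. The summed FPKM of 8 fibroblast markers ran from 101 to 224 in the untreated samples and from 102 to 241 in the treated samples. Fn1 and the collagens Col1a1 and Col1a2 were present in every sample, and Lum stayed at or below 0.202 FPKM. The lowest sum of each group was that of replicate 1. Kdm2b itself had 25.4 ± 3.36 FPKM (SD, n = 3) untreated and 22.3 ± 2.6 FPKM (SD, n = 3) treated. This is a value for the whole gene and does not resolve the floxed exon. Read numbers are not in the tables. The spacing of low values put the depth of the other 5 samples at 0.655 to 0.956 times that of untreated replicate 1.

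KDM2B recognises nonmethylated CpG dinucleotides, so the start regions of the subunit genes are shown for their CpG content. RefSeq windows of 300 bases (250 before and 50 after the start, build GRCm38.p6) were at hand for 6 of the 8 genes, as 11 windows because Men1 and Dpy30 have several starts. Setd1b and Ash2l had no entry. The windows held 1 to 39 CpGs against a median of 7 over 32851 windows of the same length. Setd1a (chr7:127777139-127777438, plus strand) held 35, a number reached by 6.95% of all windows. Hcfc1 (chrX:73966308-73966607, minus strand) held 21, reached by 24.8% of all windows. Rbbp5 (chr1:132477117-132477416, plus strand) held 16, reached by 33.0%. These 3 are printed 5′ to 3′ with each CpG in capitals, to show windows with different numbers of CpGs, each above the median of all windows.
Setd1a: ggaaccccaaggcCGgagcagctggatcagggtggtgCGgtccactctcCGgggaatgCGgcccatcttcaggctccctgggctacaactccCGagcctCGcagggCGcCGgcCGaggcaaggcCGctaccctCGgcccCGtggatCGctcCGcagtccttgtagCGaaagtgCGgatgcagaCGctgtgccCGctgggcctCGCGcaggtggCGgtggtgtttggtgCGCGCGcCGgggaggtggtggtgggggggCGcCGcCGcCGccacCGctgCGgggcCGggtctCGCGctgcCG
Hcfc1: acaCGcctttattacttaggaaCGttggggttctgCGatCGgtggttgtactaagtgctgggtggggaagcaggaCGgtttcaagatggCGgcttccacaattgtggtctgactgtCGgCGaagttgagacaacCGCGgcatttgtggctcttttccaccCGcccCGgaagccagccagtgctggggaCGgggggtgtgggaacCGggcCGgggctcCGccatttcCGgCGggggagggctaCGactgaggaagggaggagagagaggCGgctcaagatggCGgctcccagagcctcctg
Rbbp5: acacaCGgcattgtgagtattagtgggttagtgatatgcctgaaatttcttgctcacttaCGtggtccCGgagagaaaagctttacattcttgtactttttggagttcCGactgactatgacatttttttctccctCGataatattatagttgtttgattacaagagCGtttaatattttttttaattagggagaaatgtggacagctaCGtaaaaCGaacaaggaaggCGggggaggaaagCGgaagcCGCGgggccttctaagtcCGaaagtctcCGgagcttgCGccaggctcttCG
Among the 4 Dpy30 windows the count ran from 1 to 39, so its CpG content depends on which start is taken. Wdr5 held 22, and the 3 overlapping Men1 windows 11 to 16.

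The 8 genes spanned a 41-fold range of expression. Ash2l was the most abundant, with 197 ± 35.6 FPKM (SD over the 6 samples), followed by Dpy30 with 123 ± 25.1, Wdr5 with 62.2 ± 9.7, Hcfc1 with 36.5 ± 8.41, Men1 with 23.7 ± 2.38, Setd1a with 22.5 ± 3.91, Rbbp5 with 18 ± 2.28 and Setd1b with 4.8 ± 2.16. Dpy30 lay above Wdr5, Wdr5 above Hcfc1 and Rbbp5 above Setd1b in all 6 samples with no overlap of their ranges. Ash2l exceeded Dpy30 in 6 of 6 samples although their ranges met, and Setd1a exceeded Rbbp5 in 6 of 6. Hcfc1 exceeded Men1 in 5 of 6. Men1 and Setd1a changed places in 3 of the 6 samples and did not differ beyond their spread. The mRNA levels of the core subunits were uneven. Ash2l stood at 8.09 to 16.3 times the FPKM of Rbbp5, and Wdr5 at 2.87 to 5.08 times. Rbbp5, the least abundant core gene, had 0.225 to 0.439 times the summed FPKM of the 6 methyltransferase genes Setd1a, Setd1b and Kmt2a to Kmt2d.

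**Figure D1:**
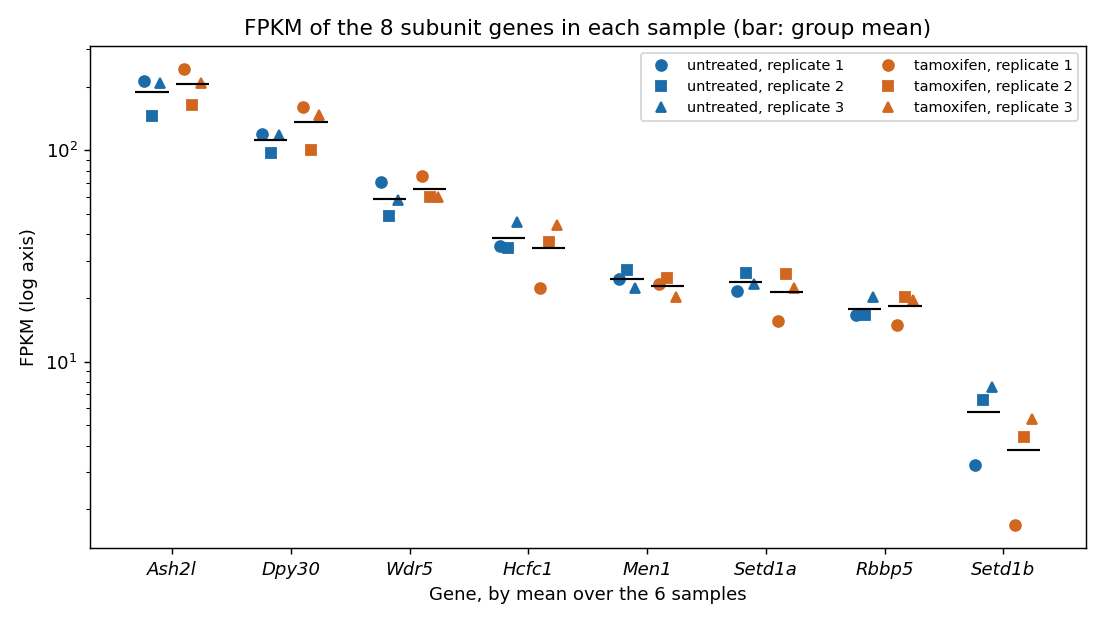
FPKM (log axis) of each subunit gene in the 3 untreated samples (blue) and the 3 tamoxifen-treated samples (orange), with the marker shape giving the replicate number and the bar the group mean. Ash2l sits highest between 145 and 243 FPKM and Setd1b lowest between 1.68 and 7.55 FPKM, and the groups overlap for every gene.

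The comparison of the groups asks whether expression of the enzymes that place the opposing mark differs after treatment that removes the KDM2B ZF-CxxC domain. The treated cells also received 4-hydroxytamoxifen and had Cre activated, and all RNA-seq samples carry the floxed alleles. Effects of drug, Cre and loss of the domain therefore cannot be told apart. Setd1b had the largest difference of the 8 genes, with a lower FPKM in the treated sample of every replicate number, and it passed the test only in fits that include the replicate number. The other 7 genes had fitted treated levels of 0.872 to 1.196 times the untreated level, and none passed the test. Differences were tested on log2(FPKM + 0.1), a scale that understates changes of low genes, with limma over the 12997 genes with at least 0.5 FPKM in at least 3 samples and Benjamini-Hochberg adjustment. All 8 subunit genes passed this filter. Without a block for the replicate number, limma called 0 of the 8, against 0.0308% of all genes tested (0.0231% higher and 0.00769% lower). At an unadjusted p under 0.05 this fit held 0 of the 8 and 4.79% of all genes. Same-numbered samples deviated together, so the number was also fitted as a block. This fit called 1 of the 8, Setd1b, against 10.4% of all genes in either direction, 4.33% as higher and 6.06% as lower. A share of 1 in 8 is close to that background. At an unadjusted p under 0.05 this fit held 2 of the 8, Setd1b and Dpy30, and 29.8% of all genes. Of the 8 genes, 3 were higher and 3 lower in all 3 replicate numbers, against 24.8% and 28.2% of all genes. The groups were apart for 0 of the 8, against 8.49% of all genes. The median log2 fold change of the 8 genes was −0.04, beside −0.02 for all genes tested. In bulk RNA, fewer cells with a transcript and less transcript per cell cannot be told apart.

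Setd1b (mm9 chromosome 5, 123592202 to 123618639, plus strand) had 3.255, 6.57 and 7.55 FPKM in untreated replicates 1, 2 and 3, and 1.68, 4.38 and 5.35 FPKM in treated replicates 1, 2 and 3. Replicate 1 was the lowest of each group, as it was for the summed fibroblast markers (101 and 102 FPKM), whose part in this value was not tested. The ranges of the groups overlapped because the untreated value of replicate 1 lay below the treated values of replicates 2 and 3. Within numbers 1, 2 and 3 the log2 difference was −0.92, −0.575 and −0.49. The fitted log2 fold change was −0.66, a level of 0.633 times the untreated one, with a standard error of 0.474 and an adjusted p of 0.999 without the block (limma). With the block, limma gave a standard error of 0.137, a 95% confidence interval of −0.98 to −0.34 and an adjusted p of 0.026. Of all genes tested, 5.59% had a fitted log2 fold change at or below that of Setd1b. The call with the block was lost when number 2 was left out (log2 fold change −0.70, limma adjusted p = 0.14) and after scaling to TPM (−0.57, limma adjusted p = 0.21). Without treated replicate 1, the fit with no block gave −0.17.

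Setd1a, the paralogue of Setd1b on chromosome 7 (134920903 to 134943633, plus strand), had 21.7, 26.1 and 23.3 FPKM untreated and 15.5, 26.1 and 22.2 FPKM treated. Replicates 2 and 3 were nearly level between the groups and treated replicate 1 was the lowest of the 6 samples. The fit put it at −0.185 (log2, standard error 0.244, limma adjusted p = 0.999), and the value turned to 0.025 without treated replicate 1. The ratio of Setd1a to Setd1b was 6.66, 3.98 and 3.09 in the untreated samples and 9.23, 5.96 and 4.15 in the treated samples. It was higher in the treated sample of each of the 3 numbers, but the ranges of the groups overlapped. Setd1b made up 6.72%, 8.93% and 12.99% of the summed FPKM of the 6 methyltransferase genes untreated and 4.93%, 6.36% and 9.84% treated. Setd1a, which formed 35.5% to 45.5% of this sum, had the highest FPKM of the enzyme genes in every sample. In replicate 2 Kmt2b was nearly level with it. Kmt2b had 26.08 FPKM against 26.14 for Setd1a untreated, and 25.05 against 26.07 treated.

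The core subunits showed little movement. Dpy30, which binds the tail of ASH2L and lies on chromosome 17 (74698814 to 74723284, minus strand), had 120, 96.5 and 118 FPKM untreated and 160, 99.95 and 146 FPKM treated. It was higher in the treated sample of all 3 numbers, but treated replicate 2 lay within the untreated range. Fitted on the log2 scale the difference was 0.26 (standard error 0.257, limma adjusted p = 0.999). With the block the unadjusted 95% interval was 0.02 to 0.50 and the limma adjusted p was 0.14. Ash2l (chromosome 8, 26927342 to 26958142, minus strand), the subunit that with RBBP5 contacts the SET domain, had 213, 145 and 207 FPKM untreated and 243, 164 and 208 FPKM treated. Wdr5, a WD-repeat scaffold that docks the enzymes (chromosome 2, 27370667 to 27392055, plus strand), had 70.7, 48.6 and 57.9 FPKM untreated and 75.8, 59.9 and 60 FPKM treated. In both genes replicate 2 was the lowest untreated sample and the treated value exceeded the untreated value of the same number, by as little as 0.01 on the log2 scale for Ash2l in number 3. Their log2 fold changes were 0.125 for Ash2l and 0.15 for Wdr5 (standard errors 0.272 and 0.23, limma adjusted p = 0.999 for each). All 6 Wdr5 values lay outside the interval bounds deposited with them, so its level is less certain. Rbbp5 (chromosome 1, 134373944 to 134402242, plus strand) had 16.6, 16.6 and 20.2 FPKM untreated and 14.9, 20.3 and 19.5 FPKM treated, with differences of both signs between numbers and a fitted log2 difference of 0.03 (standard error 0.218, limma adjusted p = 0.9997).

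The complex-specific subunits gave small values below 0. Men1 (chromosome 19, 6334979 to 6340894, plus strand) encodes menin, which tethers KMT2A and KMT2B to chromatin, and was the steadiest of the 8 genes. It had 24.45, 27.1 and 22.3 FPKM untreated and 23.2, 24.8 and 20.1 FPKM treated, with log2 differences of −0.07, −0.13 and −0.15 within the 3 numbers. The fitted value was −0.12 (standard error 0.201, limma adjusted p = 0.999; 95% interval with the block −0.33 to 0.10). Hcfc1 (chromosome X, 71188134 to 71211654, minus strand) encodes the cell-cycle cofactor HCF-1 that joins the SET1 and MLL1 complexes. It had 35.05, 34.5 and 45.6 FPKM untreated and 22.3, 36.8 and 44.5 FPKM treated. Treated replicate 1 was again the lowest sample and the other 2 numbers hardly differed. The fitted log2 difference was −0.20 (standard error 0.287, limma adjusted p = 0.999) and became 0.087 without treated replicate 1.

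**Figure D2:**
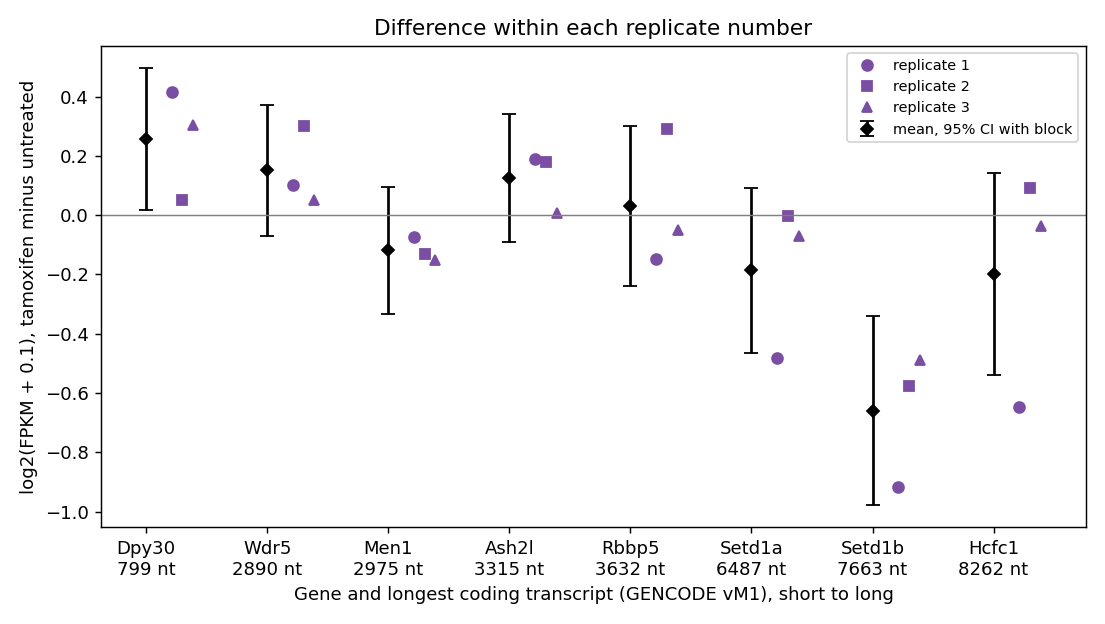
Difference in log2(FPKM + 0.1), tamoxifen minus untreated, within replicate numbers 1 (circle), 2 (square) and 3 (triangle) for each subunit gene, with the mean and its 95% confidence interval from the limma fit with the replicate block (black, not adjusted for multiple testing). Genes run from the shortest to the longest transcript, from Dpy30 with 799 nt to Hcfc1 with 8262 nt; only Setd1b has all 3 differences below −0.4.

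The fitted differences moved with transcript length across the whole tables. Length was taken from the longest coding transcript in GENCODE vM1, which was found for 95.9% of the 12997. Per length bin the median log2 fold change was 0.18 for 787 genes under 1000 nt, −0.02 for 5163 genes from 2000 to 4000 nt, −0.13 for 3310 genes from 4000 to 8000 nt and −0.21 for 501 genes of 8000 nt or more. The slope came mostly from number 1, in which these medians ran from 0.36 to −0.435, against 0.13 to −0.09 in number 2. Dpy30, with 799 nt, had the highest value of the 8 genes, and the 3 genes with the longest transcripts, Setd1a (6487 nt), Setd1b (7663 nt) and Hcfc1 (8262 nt), had the lowest. A fit with the length trend removed in each sample was therefore added after the data had been seen. With the block it gave 0.07 for Dpy30, −0.004 for Setd1a and 0.009 for Hcfc1. Setd1b stayed at −0.46 (standard error 0.104, limma adjusted p = 0.030), and the other 7 subunit genes were not called, against 14.6% of all genes in this fit (7.09% higher and 7.46% lower). An unadjusted p under 0.05 was reached here by 2 of the 8, Setd1b and Wdr5, and by 32.5% of all genes. Removing a GC trend as well (Setd1b transcript, 61% GC) left −0.345 for Setd1b (standard error 0.102, limma adjusted p = 0.067). In this fit limma called 0 of the 8 genes and 14.0% of all genes (7.02% higher and 6.97% lower), and an unadjusted p under 0.05 was reached by 1 of the 8 and by 32.4% of all genes.

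**Figure D3:**
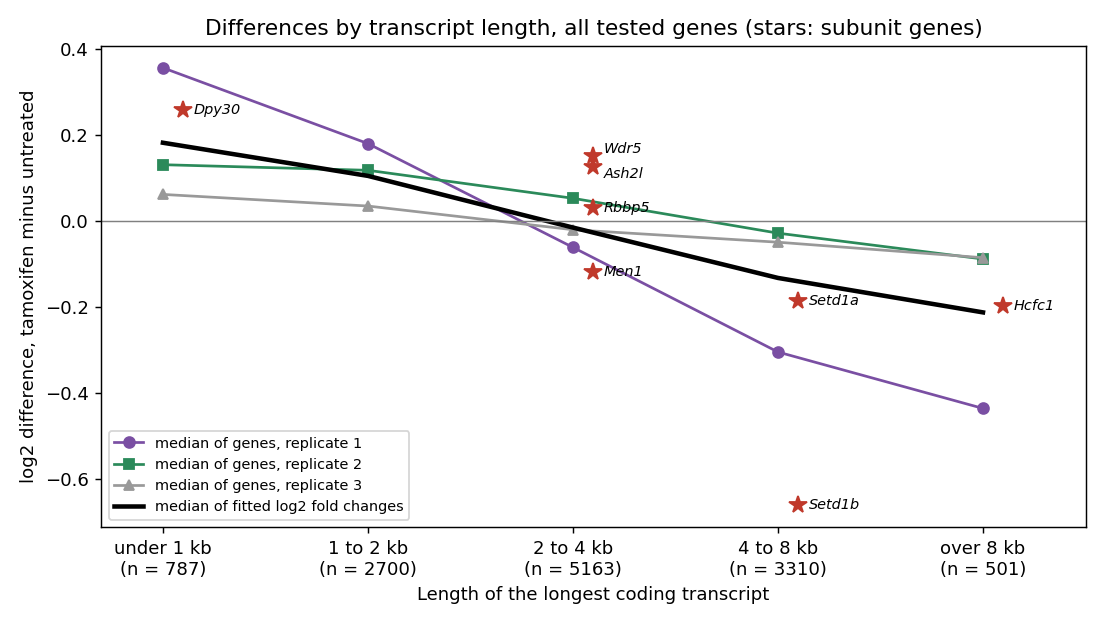
Median log2 difference, tamoxifen minus untreated, of all tested genes with a known length in 5 bins of transcript length, for replicate numbers 1, 2 and 3 and for the fitted log2 fold change (black), with the fitted values of the 8 subunit genes as stars. The black line falls from 0.18 to −0.21; Hcfc1 and Setd1a lie near it, and Setd1b lies lowest at −0.66.

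Of 14 further genes of the SET1 and MLL complexes, limma called 0 without the block and 0 with it, against 0.0308% and 10.4% of all genes. With the length trend removed and the block it called 0 of the 13 with a known length, against 14.6%. At an unadjusted p under 0.05 limma gave 0, 0 and 2 of them in these fits, against 4.79%, 29.8% and 32.5% of all genes, and the 2 were Wdr82 and Psip1. The median log2 fold change of the 14 was −0.08, with 5 above 0 and 9 below. The 4 MLL enzymes had values below 0 without exception. Kmt2a, the enzyme of the MLL1 complex, had 4.71 ± 1.72 FPKM untreated and 3.91 ± 1.48 FPKM treated (SD, n = 3 each), a log2 fold change of −0.27. Kmt2b, which serves bivalent promoters in ESCs, had 18.45 ± 6.62 and 17 ± 7.53 FPKM (−0.16). The enhancer enzymes Kmt2c and Kmt2d had −0.19 and −0.24. Their transcripts are between 8471 and 19805 nt long, and with the length trend removed and the block all 4 lay between −0.01 and 0.07. Cxxc1, which brings the SET1 complexes to nonmethylated CpG islands through a CxxC domain of its own, had 21.03, 19.5 and 17.04 FPKM untreated and 20.6, 19.25 and 19.8 FPKM treated, a log2 fold change of 0.06. Wdr82, which links SETD1A and SETD1B to RNA polymerase, had 0.14.

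The genes of the enzymes that remove H3K4 methylation were listed for the contrast. Of 6, 5 passed the filter. Limma called 0 of them without the block and 0 with it, against 0.0308% and 10.4% of all genes. At an unadjusted p under 0.05 there were 0 without the block and 2 with it, Kdm1a and Kdm5b, against 4.79% and 29.8% of all genes. Kdm5b, a demethylase of trimethylated H3K4, had 71.4, 56.2 and 71.9 FPKM untreated and 73.9, 80.4 and 90.6 FPKM treated, so that its groups did not overlap, as was so for 8.49% of all genes. Kdm1a, the demethylase LSD1, had 102, 55.2 and 75.1 FPKM untreated and 115.5, 82.9 and 94.2 FPKM treated. Their log2 fold changes were 0.30 and 0.365, with limma adjusted p = 0.12 and 0.069 under the block. With the length trend removed and the block, a fit added after the data had been seen, these were the 2 called of the 5. Both were higher, in a fit that called 7.09% of all genes as higher. The values were 0.48 for Kdm5b (limma adjusted p = 0.0096) and 0.40 for Kdm1a (limma adjusted p = 0.022). All 6 Kdm1a values lay outside the interval bounds deposited with them, so its level is less certain.

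**Figure D4:**
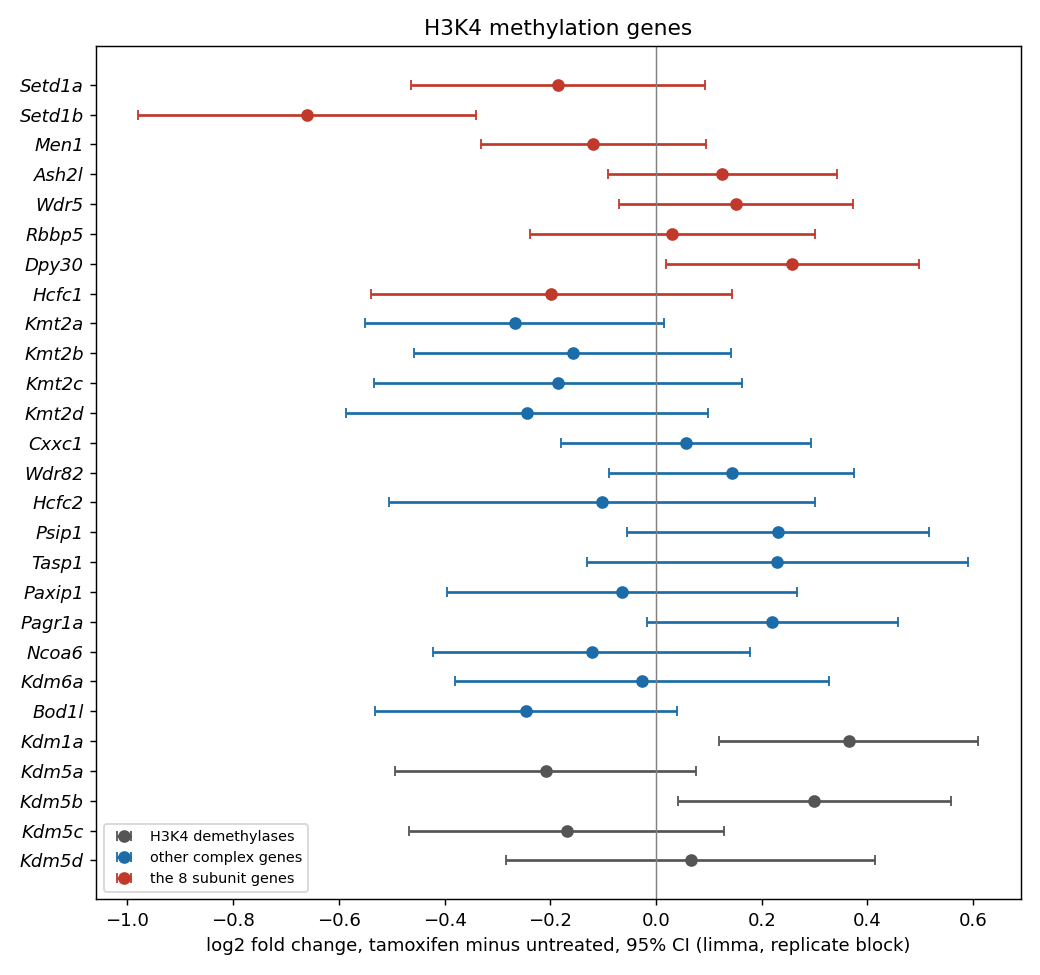
Fitted log2 fold change, tamoxifen minus untreated, with its 95% confidence interval (limma with the replicate block, not adjusted for multiple testing) for the 8 subunit genes (red), 14 other genes of the SET1 and MLL complexes (blue) and 5 H3K4 demethylase genes (grey). Setd1b at −0.66 lies farthest from 0, Kmt2a to Kmt2d lie between −0.27 and −0.16, and Kdm1a at 0.365 is the highest.

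Setd1b shares a stretch of chromosome 5 with Kdm2b. Its locus begins 153101 bp beyond the higher coordinate of the Kdm2b locus, with 5 listed genes between them. Kdm2b lies on the minus strand, so this is its 5′ side. Morn3 was under 0.3 FPKM in every sample and was not tested. The remaining 4 had fitted log2 fold changes below 0: −0.54 for A930024E05Rik, which starts 262 bp from Kdm2b, −0.30 for Orai1, −0.265 for Tmem120b and −0.27 for Rhof. The median over all genes tested was −0.02. Limma called 0 of the 4 without the block and 0 with it, against 0.0308% and 10.4% of all genes. At an unadjusted p under 0.05 there were 0 and 1 of the 4, against 4.79% and 29.8% of all genes. The lowest adjusted p with the block was 0.059, for A930024E05Rik. That gene had 2.58, 3.615 and 3.28 FPKM untreated and 1.60, 2.31 and 2.58 FPKM treated. A930024E05Rik and Rhof were lower within each number, as were 28.2% of all genes.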

How the data were processed

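PolyA+ RNA from 3 untreated and 3 tamoxifen-treated samples was sequenced as directional paired-end libraries of 51 bp reads. Per the study's methods and the submitters' processing notes, the authors aligned reads to mm9 with TopHat2 (version given as 0.5) and used Cuffdiff 2.1.1 on refGene models. The deposited FPKM tables hold 23874 rows per sample with interval bounds in the same unit. Of the 48 values of the 8 genes, 6 lay outside their own interval, all of them values of Wdr5. All 6 values of Kdm1a, Nanog, Sox2 and Dppa5a and 3 of those of Psip1 also lay outside theirs. The bounds were therefore not used. Rows were summed by gene name (23369 names), and 6 names flagged as failed by the quantifier were dropped.

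Genes with at least 0.5 FPKM in at least 3 samples (12997) entered the comparison as log2(FPKM + 0.1). The model was fitted in R 4.3.3 by limma 3.58.1 (eBayes with a trend), with Benjamini-Hochberg adjustment over all of them and a threshold of 0.05. The adjusted p-values of all limma fits are of this kind. Deviations from the group means correlated at 0.544, 0.605 and 0.506 between samples sharing replicate numbers 1, 2 and 3 of the labels, and the number was fitted as a block beside this fit. Trends with transcript length and GC content were removed per sample with lowess (span 0.3). Lengths for names absent from GENCODE vM1 came from the coding gene of the same build that overlapped the locus by at least 80% each way. The fits with and without the block were run on data simulated from the block model with normal noise. Counting error and the fits with trends removed were not tested in this way. Relative depth is the most frequent ratio of low values between samples. Counting intervals were not computed, since read numbers were not at hand. Tables and figures were made in Python 3.11.15 (numpy 2.4.6, pandas 2.3.3, scipy 1.17.1).

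The members, gene lists and tests were chosen with earlier results of these data known. Besides the 8 genes, the text names listed complex, demethylase and marker genes, Kdm2b, the genes between Kdm2b and Setd1b, and the 5 genes of most similar profile. Alternatives were other pseudocounts, filters and scalings, the highest row per name, eBayes without a trend, the block, and leaving out samples or replicate numbers.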

Additional observations from a re-analysis of the deposited data

How the results depend on the processing

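Of 23 alternatives, the 3 that remove length or GC trends were chosen after the data had been seen. Setd1b stayed below 0 under all 23 (−1.02 to −0.17). It was called in 5 of the 8 that include the replicate block (limma adjusted p 0.012 to 0.21) and in 0 of the 15 without it (limma adjusted p 0.77 to 1). The block changed no other call among the 8 genes; the lowest limma adjusted p of the other 7 under any alternative was 0.14. Of all 8, the number called lower was 1, Setd1b, with the block, 1 with block and quantile normalization, 1 with block and length trend removed, 0 with block and TPM scaling, and 0 with block and both trends removed. It was 0 whichever sample was left out without the block, and 0 to 1 when a number was left out under it.

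Genes called higher and lower over the whole table were 3 and 1 without the block and 563 and 787 with the replicate block. They were 558 and 586 with block and quantile normalization, 430 and 336 with block and TPM scaling, 884 and 930 with block and length trend removed, and 875 and 869 with block and both trends removed. A pseudocount of 1 gave 0 lower genes, and a minimum of 1 FPKM in all 6 samples 0 higher and 0 lower. Leaving out a single sample gave 0 to 5 higher and 0 to 7 lower, and leaving out a number under the block 785, 45 and 444 higher and 1078, 66 and 578 lower for numbers 1, 2 and 3. TPM scaling moved the median over all genes to 0.081 and that of the 8 genes to 0.057, with or without the block. Leaving out samples or numbers moved the latter between −0.12 and 0.06.

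Signs turned for values near 0. Hcfc1 was 0.009 with the length trend removed, with and without the block, and 0.011 with both trends removed, and Setd1a was 0.03 with both. With single samples left out, Setd1a ran from −0.348 to 0.025, Hcfc1 from −0.408 to 0.087, Ash2l from −0.052 to 0.276 and Rbbp5 from −0.052 to 0.168. Without number 1 under the block Hcfc1 was 0.027, and without number 2 Rbbp5 was −0.099. The cause was not tested. No read counts were at hand and the deposited interval bounds were not used, so counting error at the low FPKM of Setd1b was not assessed. All 6 Setd1b values lay within their own bounds, which is no measure of that error.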

Other observations

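The mean centred log2 profile of the 8 subunit genes over the 6 samples was closest to those of Sav1, Gpatch2l, Bag4, Prdm4 and Zfp592. Root mean square distances were 0.022 to 0.033 on the log2 scale. Of the 8, 4 had fitted log2 fold changes above 0 and 4 below, so this mean need not resemble any single member. Sav1, an adaptor of the Hippo kinases, had 13.3, 13.7 and 15.4 FPKM untreated and 11.9, 13.4 and 15.1 FPKM treated. Bag4, a chaperone regulator, lies on the same chromosome as Ash2l, 8, from 26875011 to 26895681. It had 19.1, 18.3 and 20.95 FPKM untreated and 16.6, 19.8 and 20.5 FPKM treated.

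Kdm1b, a demethylase of H3K4 that was left out of the tests, was listed at 4.48 FPKM in untreated replicate 2 and at 0 in the other 5 samples. Its locus overlaps that of Dek.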
